A study of Mus musculus with 12 samples.

Results

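The presynaptic vesicle and SNARE genes are 40 genes of the transmitter release machinery, chosen by name with earlier results of these data known. Every listed gene had at least 1 probe that passed, so the members are 40 of the 26495 genes tested. A probe passed where its signal exceeded background clearly on each of the 3 arrays of 1 group or more, and the brightest passing probe stood for its gene. For all 40 members that probe was above background on all 12 arrays, so no value rests on a bound. The members fall into synapsins, vesicle membrane proteins, SNARE and recycling proteins, calcium sensors, complexins, active zone and priming proteins, endocytosis proteins and neurexins.

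Transmitter is stored in synaptic vesicles that synapsins tether and that synaptophysin, SV2 and synaptogyrin proteins span. Fusion is driven by SNARE proteins, with synaptobrevin (VAMP) on the vesicle and syntaxin and SNAP-25 on the plasma membrane. Synaptotagmins sense calcium, complexins clamp and assist the SNARE complex, and RIM, Munc13, bassoon and piccolo organise the active zone. After fusion, NSF and its SNAP partners take the SNARE complexes apart, while dynamin, amphiphysin and synaptojanin retrieve the membrane.

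The study measured total RNA of whole brain on 1-colour Agilent arrays, 1 array per mouse, in 4 groups of 3 untreated BALB/c mice. The groups were interleukin-18 knockout (KO) mice of 12 weeks, wild-type (WT) mice of 12 weeks, KO mice of 6 weeks and WT mice of 6 weeks. The knockout removes Il18, the gene of an inflammatory cytokine. How the allele was made, and in which cells, is not given in the sources used here. In whole brain, fewer cells of a type and less RNA per cell cannot be told apart.

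All values are log2 signals relative to the 75th percentile of the same array, and a change is a difference of such values, given ± SE from limma. A gene was called when its Benjamini-Hochberg adjusted p over all genes was under 0.05. Il18 itself read -0.20, -0.23 and -0.32 in KO at 12 weeks, against 1.51, 1.63 and 1.93 in WT. At 6 weeks it read -0.28, -0.17 and -0.20 in KO, against 1.60, 1.75 and 1.52 in WT. The groups did not overlap at either age. It is not known here if this probe reads the deleted part.

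The arrays came from 2 slides. All 6 WT arrays and KO replicates 1 and 2 of 6 weeks were on slide 1, and KO replicate 3 of 6 weeks and all 3 KO arrays of 12 weeks were on slide 2. Over all genes, the leading principal component (38.8% of the variance) separated the slides. At 12 weeks, genotype and slide therefore cannot be told apart by a comparison within a slide. Fitting slide as a block rests on the 6-week KO group alone, and its values stand beside the results. On each array 65.9% to 76.2% of spots exceeded background clearly, and the number of arrays limits the precision.

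**Figure D1:**
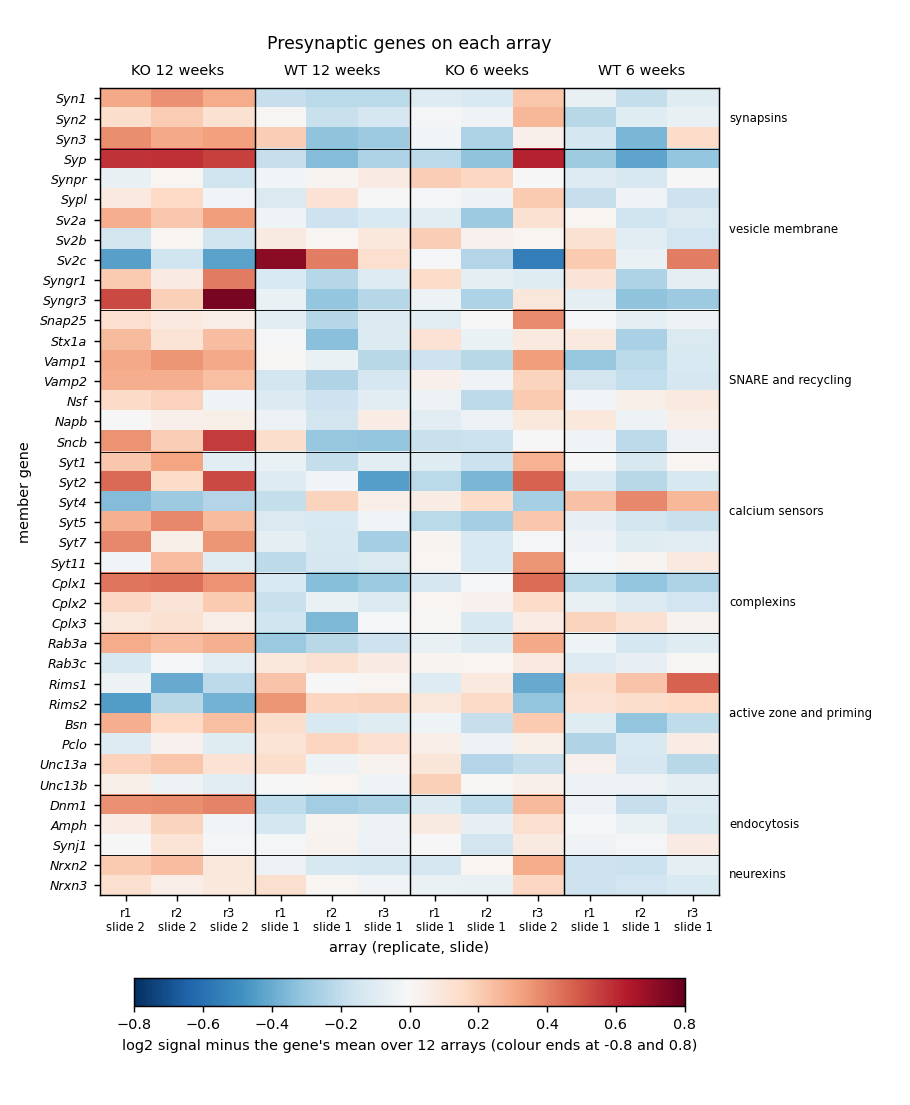
Log2 signal of the 40 members (rows, grouped by role) on the 12 arrays (columns, by group, with replicate and slide), each minus the gene's mean over all arrays. The KO arrays of 12 weeks and KO replicate 3 of 6 weeks are all on slide 2; that replicate is nearer to the mean of the 12-week KO arrays than to replicates 1 and 2 of its own group for 29 of the 40 members.

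Rab3c, a GTPase of synaptic vesicles, was read by 3 probes that did not give the same change, so their sequences matter for it. Probes 2 and 3 share 54 bases, and the first 30 of the 60 bases of each probe are shown 5′ to 3′. Capitals mark letters that both overlapping probes hold, so all letters shown of probe 2 are shared. Positions are on mm9, the build of the files.
Rab3c brightest probe, chr13:110844454-110844513, minus strand: ctgttaggtatttagtttgtgtgtgaattc
Rab3c probe 2, chr13:110850524-110850583, minus strand: ATGTTCTACAGAGTGAGTTCTAGGATAGCA
Rab3c probe 3, chr13:110850530-110850589, minus strand: gctagaATGTTCTACAGAGTGAGTTCTAGG
Because probes 2 and 3 read nearly the same bases, their readings are not independent measurements.

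The probes of the 10 members given array by array below have these mm9 positions. Vamp2 is at chr11:68905527-68905586, Dnm1 at chr2:32163995-32164054 and Syn1 at chrX:20437641-20437700. Cplx1 is at chr5:108947895-108947954, Rab3a at chr8:73282447-73282506 and Syngr3 at chr17:24822965-24823024. Syt7 is at chr19:10527150-10527209, Syp at chrX:7230297-7230356, Rims2 at chr15:39513319-39513378 and Sv2c at chr13:96729454-96729513. Whether these lie in coding or untranslated exons was not analysed here, since no mm9 annotation was used.

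In KO brains of 12 weeks, 20 of the 40 members differed from WT, 18 of them higher and 2 lower. The rises were modest, from 1.20-fold for Cplx3 to 1.78-fold for Syp, and they covered vesicle membrane, SNARE, calcium sensor, complexin and synapsin genes. The falls were Sv2c and Rims2. Over all genes, 33.0% were called at 12 weeks, 18.5% higher and 14.5% lower. The members' median change was 0.26, against 0.02 over all genes. The arrays of KO and WT did not overlap for 31 members, or 77.5%, against a background of 52.4% of all genes.

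These rises depended on how slide and scaling were handled. With slide as a block, no member was called at 12 weeks, and 0.113% of all genes were, while 3 members, or 7.5%, had an unadjusted limma p under 0.05, against 8.01% of all genes. The members' median change was then -0.01, and the SE of a member was typically 1.48 times that without the block. With quantile normalization 17 members were called, 10 higher and 7 lower, against 15.6% and 14.0% of all genes, and the median was 0.03. Of the 20 members called, 9 of the rises and both falls were also called there.

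**Figure D2:**
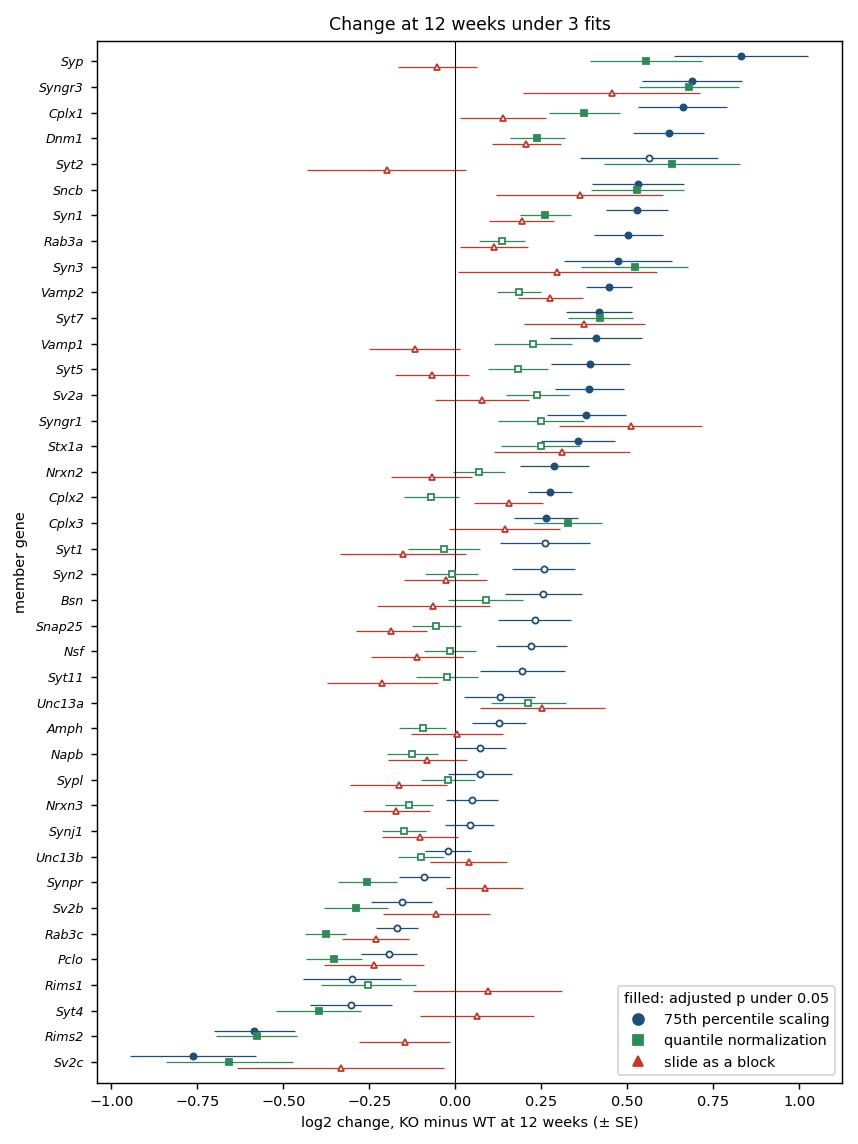
Log2 change, KO minus WT at 12 weeks, of each member (rows, ordered by change) with 75th percentile scaling, quantile normalization and slide as a block, ± SE. Filled symbols are called; with slide as a block no symbol is filled, and Syp is at -0.05 there, against 0.83 without the block.

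The synapsins coat the vesicle surface. Syn1 read 5.97, 6.04 and 5.97 in KO at 12 weeks, against 5.49, 5.45 and 5.45 in WT. Every KO array was above every WT array, and the change of 0.53 ± 0.09 was called (limma adjusted p = 0.0055; 0.26 and still called with quantile normalization; 0.19 with slide as a block). KO replicate 3 of 6 weeks read 5.89, close to the 12-week KO arrays, while replicates 1 and 2 read 5.57 and 5.55. Syn3, a minor synapsin of adult brain, was higher by 0.47 ± 0.16 (adjusted p = 0.043). Syn2 was at 0.26 ± 0.09 and just missed the threshold (adjusted p = 0.053).

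Among the vesicle membrane genes, 4 of 8 rose and 1 fell. Syp (synaptophysin), a major protein of the vesicle membrane, read 6.32, 6.33 and 6.29 in KO at 12 weeks and 5.56, 5.40 and 5.49 in WT. The groups lay wholly apart, and the change of 0.83 ± 0.20 had the largest size among the members (adjusted p = 0.012). KO replicate 3 of 6 weeks read 6.36, above all 3 KO arrays of 12 weeks, while replicates 1 and 2 read 5.53 and 5.42 and the 6-week WT arrays 5.46, 5.32 and 5.43. With slide as a block the change was -0.05 ± 0.12.

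Syngr3, a synaptogyrin, read 0.68, 0.34 and 0.91 in KO at 12 weeks, against 0.10, -0.16 and -0.08 in WT. KO was higher on every array, by 0.69 ± 0.15 (adjusted p = 0.0089), and the KO arrays spread widely. Here KO replicate 3 of 6 weeks read only 0.24, nearer to replicates 1 and 2 (0.11 and -0.10), and with slide as a block 0.45 ± 0.26 remained. Its relative Syngr1 rose by 0.38 ± 0.11 (adjusted p = 0.030), and gave 0.51 ± 0.21 with slide as a block, which was not called. A second, dimmer Syngr1 probe gave 0.15 ± 0.10, not called, and -0.18 with slide as a block.

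The SV2 family, glycoproteins that bind synaptotagmin, did not move as one. Sv2a was higher by 0.39 ± 0.10 (adjusted p = 0.017), Sv2b was at -0.16 ± 0.09 (adjusted p = 0.19), and Sv2c was lower. Sv2c, found above all in basal ganglia and brainstem, read -3.58, -3.31 and -3.58 in KO at 12 weeks, against -2.43, -2.74 and -3.02 in WT. The groups did not overlap, and Sv2c fell by 0.76 ± 0.18 on the log2 scale (adjusted p = 0.013; -0.33 ± 0.30 with slide as a block). KO replicate 3 of 6 weeks read -3.71, the lowest of all 12 arrays. The other vesicle membrane members, Synpr and Sypl, gave -0.09 and 0.07, and neither was called.

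In the SNARE and recycling group 4 of 7 rose and none fell. Vamp2 (synaptobrevin 2), the main vesicle SNARE of the forebrain, read 5.96, 5.97 and 5.91 in KO at 12 weeks and 5.53, 5.43 and 5.54 in WT. Its change of 0.45 ± 0.07 had the lowest adjusted p of the members, 0.0047. Its 6-week KO arrays read 5.72, 5.65 and 5.85, all above the 6-week WT arrays at 5.53, 5.48 and 5.54, but 0.22 ± 0.07 was not called at that age (adjusted p = 0.14). With slide as a block 0.28 ± 0.09 remained at 12 weeks, and with quantile normalization 0.19 ± 0.06 (adjusted p = 0.052).

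Vamp1, the form prominent in brainstem and spinal cord, rose by 0.41 ± 0.13 (adjusted p = 0.039), and its slide-block value was -0.12 ± 0.13. Stx1a (syntaxin 1A), a plasma membrane SNARE, rose by 0.36 ± 0.11 (adjusted p = 0.029), with 0.31 ± 0.20 under the slide block. Sncb (beta-synuclein), a presynaptic relative of alpha-synuclein, rose by 0.53 ± 0.13 (adjusted p = 0.015). Snap25, the other plasma membrane SNARE, was at 0.23 ± 0.11 and was not called (adjusted p = 0.12). Nsf and Napb, which disassemble used SNARE complexes, were at 0.22 ± 0.10 and 0.07 ± 0.07, also without a call.

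Of the 6 synaptotagmins, Syt5 and Syt7 rose. Syt7, a slow calcium sensor, read 0.43, 0.10 and 0.40 in KO at 12 weeks, against -0.02, -0.08 and -0.22 in WT. KO was higher on every array, though replicate 2 only narrowly, and the change was 0.42 ± 0.10 (adjusted p = 0.011). Its value changed little between fits, with 0.42 by quantile normalization, where it was called, and 0.38 ± 0.18 with slide as a block, where it was not. KO replicate 3 of 6 weeks read 0.04, close to replicates 1 and 2 (0.07 and -0.08). All these values come from the brightest Syt7 probe. A second, dimmer Syt7 probe gave -0.11 ± 0.12, not called, and -0.09 with slide as a block, so the rise of Syt7 rests on 1 of 2 probes. Syt5, another calcium-binding synaptotagmin, rose by 0.39 ± 0.11 (adjusted p = 0.026) and turned to -0.07 ± 0.11 with slide as a block.

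The fast calcium sensors of the forebrain and hindbrain, Syt1 and Syt2, were at 0.26 ± 0.13 and 0.56 ± 0.20 and were not called (adjusted p = 0.15 and 0.053). Syt4 was at -0.30 ± 0.12 (adjusted p = 0.073) and Syt11, neither of which senses calcium in the usual way, at 0.20 ± 0.12 (adjusted p = 0.24).

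All 3 complexins rose. Cplx1, prominent in inhibitory neurons, read 6.29, 6.30 and 6.22 in KO at 12 weeks and 5.74, 5.52 and 5.57 in WT. The groups lay apart by far more than their spread, with a change of 0.66 ± 0.13 (adjusted p = 0.0074). In the 6-week KO group, replicate 3 read 6.31, again with the 12-week KO arrays, against 5.73 and 5.84 for replicates 1 and 2. With slide as a block 0.14 ± 0.12 remained. Cplx2, common in forebrain neurons, rose by 0.28 ± 0.07 (adjusted p = 0.012), but gave -0.07 ± 0.08 with quantile normalization. Cplx3, known from retinal ribbon synapses, rose by 0.26 ± 0.09, at the edge of the threshold (adjusted p = 0.0499). Its means were -1.09 in KO and -1.35 in WT at 12 weeks, against -1.19 in KO and -1.06 in WT at 6 weeks. KO at 12 weeks was thus above WT of that age but not above WT of 6 weeks.

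Of the 8 active zone and priming genes, 1 rose and 1 fell, and the median change was -0.09. Rab3a, the main vesicle GTPase, read 7.23, 7.17 and 7.21 in KO at 12 weeks, against 6.63, 6.70 and 6.76 in WT. The groups did not overlap, and the change was 0.50 ± 0.10 (adjusted p = 0.0077; 0.14 and not called with quantile normalization; 0.11 ± 0.10 with slide as a block). The slide 2 array of the 6-week KO group (replicate 3) was at 7.23, and replicates 1 and 2 at 6.86 and 6.81.

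Rims2, an active zone scaffold that binds Rab3, moved the other way. It read -0.47, -0.25 and -0.40 in KO at 12 weeks and 0.33, 0.15 and 0.15 in WT, with no overlap. Rims2 fell by 0.58 ± 0.12 (adjusted p = 0.0080), and by 0.58 ± 0.12 with quantile normalization as well (adjusted p = 0.0096). Replicate 3 of the 6-week KO mice read -0.34, among the 12-week KO arrays, against 0.07 and 0.13 for replicates 1 and 2, and the slide block left -0.15 ± 0.13. Its paralog Rims1 was at -0.30 ± 0.14 (adjusted p = 0.13).

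The large scaffolds Bsn (bassoon) and Pclo (piccolo) were at 0.26 ± 0.11 (adjusted p = 0.10) and -0.19 ± 0.08 (adjusted p = 0.092). The priming factors Unc13a and Unc13b (Munc13 proteins) were at 0.13 ± 0.10 (adjusted p = 0.35) and -0.02 ± 0.07 (adjusted p = 0.84). Rab3c was at -0.17 ± 0.06 and just missed the threshold (adjusted p = 0.053). With quantile normalization Rab3c and Pclo were called lower, by -0.38 ± 0.06 and -0.35 ± 0.08.

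Among the 3 endocytosis genes only Dnm1 was called. Dnm1 (dynamin 1), the neuronal GTPase that cuts vesicles from the membrane, read 7.54, 7.54 and 7.57 in KO at 12 weeks and 6.97, 6.90 and 6.92 in WT. The KO arrays lay closely together and above every WT array, and the change was 0.62 ± 0.10 (adjusted p = 0.0054). In the 6-week KO group, replicate 3 read 7.43, against 7.07 and 6.97 for replicates 1 and 2. With quantile normalization 0.24 ± 0.08 was still called, and with slide as a block 0.21 ± 0.10 was not. Amph (amphiphysin) and Synj1 (synaptojanin 1) were at 0.13 ± 0.08 and 0.04 ± 0.07 without a call.

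The neurexins are presynaptic adhesion proteins. Nrxn2 rose by 0.29 ± 0.10, at the edge of the threshold (adjusted p = 0.0497), and gave -0.07 ± 0.12 with slide as a block. Its second probe gave -0.29 ± 0.15, not called, and -0.40 with slide as a block, so the rise of Nrxn2 rests on 1 of 2 probes. Nrxn3 was at 0.05 ± 0.07 and was not called (adjusted p = 0.64).

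**Figure D3:**
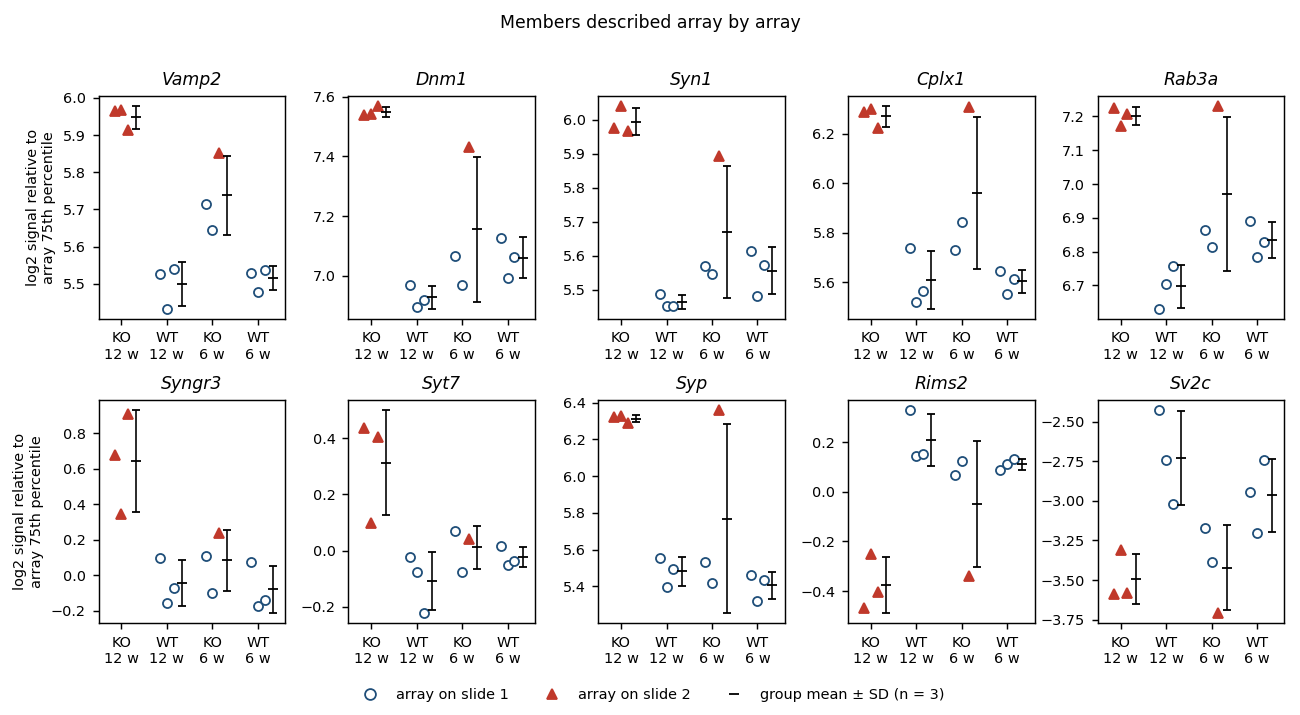
Log2 signal relative to the array's 75th percentile of 10 members on each array, by group, with the mean ± SD (n = 3) beside the points. Open circles are arrays of slide 1 and red triangles arrays of slide 2; for Syp, Cplx1, Rab3a and Rims2 the single slide 2 array of the 6-week KO group lies with the 12-week KO arrays, and for Syt7 it does not.

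KO replicate 3 of 6 weeks gave the only direct reading of slide within a group. Its value was nearer to the mean of the 12-week KO arrays than to the mean of its own replicates 1 and 2 for 29 of the 40 members, and for 14 of the 20 called. The same held for 65.2% of all genes and for 72.8% of all genes called at 12 weeks. The exceptions among the called members were Syn3, Syngr1, Syngr3, Stx1a, Sncb and Syt7. Per array, the members' median deviation from their gene means was 0.12 in this replicate and 0.10 to 0.17 in the 12-week KO arrays. It was -0.02 and -0.09 in KO replicates 1 and 2 of 6 weeks and -0.13 to -0.04 in the WT arrays. The part of slide in the result at 12 weeks was not tested apart from the block fit, which uses these same arrays.

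The change at 12 weeks also moved with signal level over all genes. In level bins chosen after the data were seen, the median change of all genes was -0.11 for genes more than 2 log2 units below their array's 75th percentile and 0.25 for genes more than 4 units above it. In the brightest bin 48.8% of genes were called higher and 2.64% lower, against 5.98% and 17.3% in the dimmest. The members are mostly bright: 20 of the 40 lay in the brightest bin, with 10 called higher, none lower and a median change of 0.27. That median is close to the 0.25 of all genes at that level. The members of middle level fell on both sides of all genes. The 5 members between 0 and 2 had a median change of 0.42, against 0.04 for all genes in that bin, and the 8 members between 2 and 4 had a median of 0.08, against 0.13.

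With quantile normalization the trend over levels was nearly flat, with bin medians between -0.01 and 0.03 for all genes. Of the 20 brightest members, 4 were then called higher and 1 lower. Genes called with both scalings were Syn1, Syn3, Syp, Syngr3, Sncb, Syt7, Cplx1, Cplx3 and Dnm1 among the rises and Sv2c and Rims2 among the falls. Called only with quantile normalization were Syt2, higher, and Synpr, Sv2b, Syt4, Rab3c and Pclo, lower. Median scaling, which moved the median change of all genes to 0.14, called 25 members, 23 higher and 2 lower, against 27.9% of all genes higher and 7.61% lower.

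**Figure D4:**
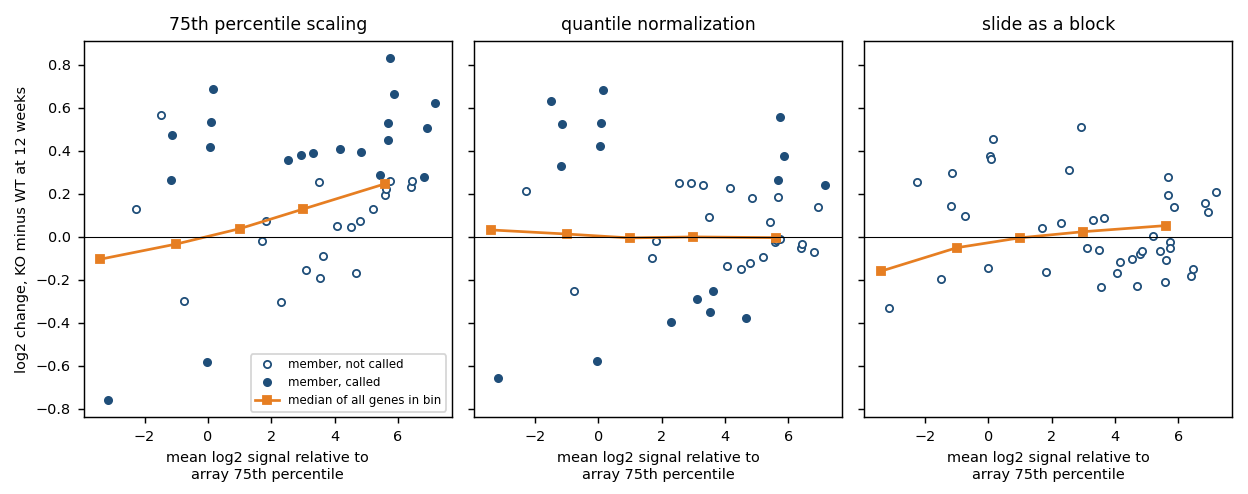
Log2 change, KO minus WT at 12 weeks, of each member against its mean log2 signal relative to the array's 75th percentile, under 3 fits; orange squares are medians of all genes in 5 level bins. The orange line climbs from -0.11 to 0.25 with 75th percentile scaling and stays near 0 with quantile normalization, where members are called in both directions.

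Several passing probes are given for 16 of the 40 members, and in 7 of these the probes differed in the sign of the change at 12 weeks. None of these 16 had probes called in opposite directions. Both Dnm1 probes were called higher, by 0.62 ± 0.11 and 0.65 ± 0.20. For Rab3c the overlapping probes were called lower, by -0.48 ± 0.10 and -0.60 ± 0.11, while the brightest gave -0.17 ± 0.06. Sypl gave 0.07 with its brightest probe and -0.57 ± 0.11, called, with the other. Napb gave 0.07 and 0.49 ± 0.12, only the second called. For Nrxn3, 1 of 5 probes was called, at -0.33 ± 0.11, and for Syt7 the second probe gave -0.11 ± 0.12. The 2 other Sv2c probes gave -0.27 ± 0.11 and 0.11 ± 0.36, so the fall of Sv2c rests on 1 probe. Which transcripts each probe reads was not analysed here.

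**Figure D5:**
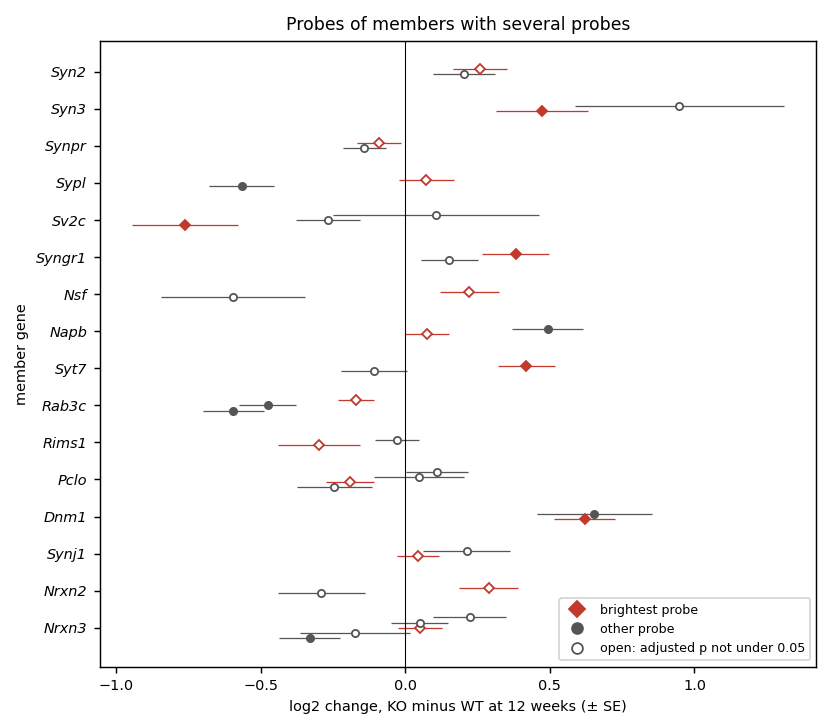
Log2 change, KO minus WT at 12 weeks (± SE), of each passing probe of the 16 members for which several probes are given; diamonds mark the brightest probe and filled symbols an adjusted p under 0.05 over all probes. Probes of Dnm1 lie together, while those of Sypl, Napb, Nsf, Nrxn2 and Nrxn3 lie apart.

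At 6 weeks no member was called between KO and WT by limma, against 0.925% of all genes. At an unadjusted p under 0.05 there were 7 members, or 17.5%, against 18.5% of all genes. The member changes ran from -0.46 for Sv2c to 0.36 for Syp, with a median of 0.11 against 0.04 over all genes. Sv2c read -3.17, -3.39 and -3.71 in KO, against -2.94, -3.20 and -2.74 in WT, so its groups overlapped. Within slide 1, KO replicates 1 and 2 against the WT arrays gave a member median of 0.02, with none called, against 0.204% of all genes. In that fit 2 members, or 5.0%, were under an unadjusted p of 0.05, against 15.0% of all genes.

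With age in WT, 12 minus 6 weeks, no member was called, against 0.638% of all genes. All of these arrays were on slide 1. The changes ran from -0.29 for Cplx3 to 0.24 for Pclo, the median was -0.01, and 5 members, or 12.5%, had an unadjusted p under 0.05, against 14.7% of all genes. Cplx3 read -1.34, -1.54 and -1.19 at 12 weeks, against -0.99, -1.06 and -1.14 at 6 weeks. Its groups did not overlap, but -0.29 ± 0.09 did not pass (limma adjusted p = 0.19).

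With age in KO, no member was called either, against 2.01% of all genes. At an unadjusted p under 0.05 there were 17 members, or 42.5%, against 26.8% of all genes. The median was 0.12, and the lowest adjusted p was 0.064, for Syngr3 at 0.56 ± 0.15. This comparison shares its 12-week KO arrays with the one at 12 weeks. Without KO replicate 3 of 6 weeks, which leaves slide and age in KO impossible to tell apart, 17 members were called, 14 higher and 3 lower, against 28.0% of all genes. Within slide 2, the 12-week KO arrays against that replicate gave a member median of -0.03, against -0.05 over all genes. With 1 array of 6 weeks on that slide, this cannot show if members changed with age in KO.

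The difference between the KO effects at the 2 ages was called for no member, against 0.189% of all genes. At an unadjusted p under 0.05 there were 13 members, or 32.5%, against 19.6% of all genes. The largest differences were 0.55 ± 0.19 for Sncb (adjusted p = 0.18), 0.53 ± 0.21 for Syngr3 (adjusted p = 0.21) and 0.53 ± 0.15 for Dnm1 (adjusted p = 0.14). Without KO replicate 3 of 6 weeks 13 members were called, 11 higher and 2 lower, against 17.8% of all genes. Leaving that replicate out makes slide and this difference impossible to tell apart. The calls at 12 weeks are therefore not shown to be particular to that age.

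Another 108 genes of the presynapse were tested, from lists set down beside the members, also with earlier results of these data known. At 12 weeks 35 rose and 12 fell, with a median of 0.15. The rises were 32.4%, against 18.5% of all genes. That share of all genes ran from 5.98% in the dimmest level bin to 48.8% in the brightest, and the 108 were not matched for level. Endocytosis genes held the most rises, 12 of 26 with 3 falls, and included Dnm2, the ubiquitous dynamin, at 0.58 ± 0.08 (adjusted p = 0.0040), and Ap2s1, a subunit of the clathrin adaptor, at 0.56 ± 0.09 (adjusted p = 0.0049). Vesicle membrane genes gave 9 rises and 3 falls of 24. Calcium sensor and priming genes gave 6 and 1 of 15, with Syt13 at 0.46 ± 0.08 (adjusted p = 0.0053). Active zone genes gave 4 and 2 of 21, with Ppfia3, a liprin scaffold, at 0.58 ± 0.10 (adjusted p = 0.0054). Fusion genes gave 4 and 3 of 22. With slide as a block none of the 108 was called, against 0.113% of all genes. With quantile normalization 22 rose and 18 fell, against 15.6% and 14.0% of all genes.

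Markers of neurons and of other brain cell types were called as well, beside 18.5% of all genes called higher and 14.5% lower at 12 weeks. Of 11 general neuronal markers tested, 5 rose and none fell at 12 weeks, with a median of 0.33, and their summed level was 8.72 to 8.77 in KO and 8.42 to 8.48 in WT. Of 14 postsynaptic density genes 4 rose and 2 fell, with sums of 7.16 to 7.20 in KO and 6.91 to 7.01 in WT. Astrocyte markers gave 3 rises and 1 fall of 8, oligodendrocyte markers 4 and 1 of 8, microglia markers 4 and 0 of 8, and endothelial markers 2 and 0 of 8. The sums were 8.88 to 9.02 in KO and 8.62 to 8.65 in WT for astrocytes, and 8.20 to 8.23 in KO and 8.11 to 8.13 in WT for oligodendrocytes. For microglia they were 6.58 to 6.67 in KO and 6.27 to 6.45 in WT, and for endothelium 4.81 to 4.95 in KO and 4.60 to 4.63 in WT. All 57 markers tested were above background on all 12 arrays, and each of the 6 sums was higher in KO at 12 weeks. Those KO arrays were all on slide 2 and the WT arrays on slide 1. Bright genes of any kind also tended to be higher in KO at 12 weeks. The median change of all genes in the brightest level bin was 0.25, and -0.01 with quantile normalization. The parts of slide and of signal level in the sums were not tested. At 6 weeks the KO and WT ranges overlapped for every list but endothelium, with 4.67 to 4.91 in KO and 4.51 to 4.53 in WT. For astrocytes they were 8.52 to 9.01 in KO and 8.74 to 8.78 in WT. The oligodendrocyte sums of the 6-week WT arrays were all above those of the 12-week KO arrays. The part of cell makeup in the member changes was not tested.

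Promoter sequence was looked at for what the members share, in 250 bases before the start of each transcript from RefSeq on GRCm38.p6. Entries were matched by symbol for 31 of the 40 members, and not for Snap25, Vamp2, Syngr3, Syn3, Syt4, Syt5, Syt7, Rims2 and Nrxn2. The motifs, searched on both strands, were TTCAGCACC and GGACAG, the left and right parts of the site of the neuronal repressor REST, TGACGTCA (CREB), CGCATGCG (NRF1) and GGGCGG (SP1). GGGCGG was held by 21 of 31 members, or 67.7%, against 32.7% of all 32851 promoters. GGACAG was held by 8 members, or 25.8%, against 18.7%. TTCAGCACC and TGACGTCA each occurred in 1 member, Syn1, against 0.301% and 1.55% of all promoters, and CGCATGCG in Syn1 and Bsn, against 1.55%. A member may have several promoters, which raises its chance of a match, and members are not a sample of all genes in base composition. Promoters are shown 5′ to 3′ in the direction of the gene, with motif letters in capitals, for Syn1, which held 3 of the motifs, and for Syp, Cplx1 and Sv2c, the largest changes at 12 weeks among the genes matched.
Syn1, chrX:20920919-20921168, minus strand: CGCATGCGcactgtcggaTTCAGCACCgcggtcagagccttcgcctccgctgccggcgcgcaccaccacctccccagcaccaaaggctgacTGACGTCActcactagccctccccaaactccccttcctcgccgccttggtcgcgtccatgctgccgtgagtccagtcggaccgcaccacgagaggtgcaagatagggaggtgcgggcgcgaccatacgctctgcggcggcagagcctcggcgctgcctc
Syp, chrX:7638330-7638579, plus strand: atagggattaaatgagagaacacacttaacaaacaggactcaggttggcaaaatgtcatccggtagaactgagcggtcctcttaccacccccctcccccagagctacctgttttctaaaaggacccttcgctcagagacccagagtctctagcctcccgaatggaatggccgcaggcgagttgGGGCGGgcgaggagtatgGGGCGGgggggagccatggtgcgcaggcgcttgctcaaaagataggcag
Cplx1, chr5:108550028-108550277, minus strand: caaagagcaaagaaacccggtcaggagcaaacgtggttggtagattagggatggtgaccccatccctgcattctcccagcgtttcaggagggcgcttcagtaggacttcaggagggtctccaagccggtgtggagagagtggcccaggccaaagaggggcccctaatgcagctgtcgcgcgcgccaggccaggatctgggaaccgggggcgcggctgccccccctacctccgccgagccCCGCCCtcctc
Sv2c, chr13:96132578-96132827, minus strand: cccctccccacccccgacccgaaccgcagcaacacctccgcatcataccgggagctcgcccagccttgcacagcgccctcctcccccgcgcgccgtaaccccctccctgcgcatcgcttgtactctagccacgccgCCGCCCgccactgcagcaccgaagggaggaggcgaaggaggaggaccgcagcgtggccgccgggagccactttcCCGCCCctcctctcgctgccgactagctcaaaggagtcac
In Syn1 the capitals mark CGCATGCG, TTCAGCACC and TGACGTCA, in that order. Syp holds GGGCGG at 2 places, Cplx1 its reverse complement at 1 and Sv2c at 2, so these letters stand before genes that rose and a gene that fell.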

How the data were processed

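Total RNA of whole brain was measured on 12 one-colour Agilent arrays, 1 per animal, in 4 groups of 3. Signals were extracted with Agilent Feature Extraction 10.7.3.1, as the submitters' processing notes state. Per the file headers, the authors deposited a processed signal per spot, which is an intensity. Other deposited columns are marks of 0 or 1 for spots above background, saturated or outlying, per the file headers. The deposited value table, also an intensity, differed from the processed signal by at most 0.498%. Probe positions are on mm9.

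From the processed signal, the log2 was taken without control and outlier spots, and the log2 of the array's 75th percentile was subtracted. Probes that exceeded background clearly on each of the 3 arrays of 1 group or more were kept (37198), with the brightest per gene (26495 genes). The 12 arrays were fitted with limma 3.58.1 in R 4.3.3, with 1 mean per group and 8 residual degrees of freedom. Tests were two-sided, with Benjamini-Hochberg adjustment over all genes of a comparison, or over all 37198 probes for single probes. The fit was tested on simulated data. Separate animals are taken from the word biological in the sample titles.

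Values of each array are named for Il18, for at most 8 called members with the lowest adjusted p per comparison and for the 2 largest changes in each direction. Other presynaptic genes are counted, with at most 4 named. Members, lists and naming rules were chosen with earlier results of these data known. Alternatives were slide, slide column and replicate as blocks, single slides, normexp, quantile and median scaling, the value table, other probe filters, only the groups compared, other eBayes options, the mean of a gene's probes, and leaving out each array. Same-numbered arrays of different groups correlated at -0.20 to 0.11 in their deviations from group means, so the numbers did not pair the samples. Some probe readings are not reported here.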

Additional observations from a re-analysis of the deposited data

How the results depend on the processing

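The comparison of KO and WT at 12 weeks called 20 members, and the count was 0 with slide as a block, fixed or random. The share of all genes called went from 33.0% to 0.113% and 0.192% in these fits. With slide as a random block the members' median change was 0.14, against -0.01 over all genes. In that fit 14 members, or 35%, had an unadjusted limma p under 0.05, against 19.7% of all genes. The member count was 11 to 26 when single arrays were left out, lowest without WT replicate 2 of 12 weeks, and 12 without KO replicate 1 or 3 of 12 weeks. The share of all genes called was 20.3%, 19.6% and 23.7% without these arrays in turn. It was 39.5% without KO replicate 3 of 6 weeks, which gave the count of 26. Under the other alternatives the member count was within 1.5 times of 20. It ran from 14 without a filter on dim probes (18.6% of all genes called) to 25 with median scaling (35.5%). Of the 20 members, 11 were called with each array left out in turn.

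With slide as a fixed block the sign turned for Syp (-0.0525), Vamp1 (-0.118), Syt5 (-0.0672) and Nrxn2 (-0.0685). With quantile normalization it turned for Cplx2 (-0.0695). With the mean of a gene's probes it turned for Nrxn2 (-0.00147) and for Sypl, which was then called (-0.247). These signs were compared only where 1 of the 2 fits called the gene, and the cause was not tested.

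At 6 weeks and with age in WT, 0 members were called under every alternative run. With age in KO the count was 0, but 2 with normexp and 6 with eBayes trend and robust options, against 3.45% and 7.26% of all genes. It was 0 to 17 with single arrays left out. The 17 came without KO replicate 3 of 6 weeks (28.0% of all genes), and 2 came without KO replicate 2 of 12 weeks (1.78%). The difference of the KO effects gave 0 to 13, with 13 without KO replicate 3 of 6 weeks, against 17.8% of all genes. A replicate block called 17 members at 12 weeks, against 28.5% of all genes, and 0 members in the other comparisons. But the numbers did not pair the samples: 2 of 12 arrays correlated best with their own number. Restriction to single slides leaves no array pair for the comparison at 12 weeks. Signal over background was no limit for the members. The limits were the 3 arrays per group and, at 12 weeks, that KO and WT arrays were on different slides.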
